A study of Mus musculus with 47 samples.

Results

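The response of the male Pxr-/- liver to antibiotics was read from 11 of the 47 arrays of the series, 1 array per mouse. The members are the 6 mice labelled M_PxrKO_ATB and the 5 labelled M_PxrKO_CTRL, called ATB and Cont here. These mice were chosen by sex, genotype and treatment, with earlier results of these data known. All mice were on the C57BL/6J background and came from Pxr+/- parents, so that null mice and their Pxr+/+ controls were littermates. They were about 6 months old and were killed at zeitgeber time 6, in the light phase. For 2 weeks, the water of ATB mice held vancomycin at 0.5 g/L together with neomycin and ampicillin, each at 1 g/L, whereas Cont mice drank water without antibiotics. The 12 male Pxr+/+ mice and the 12 female Pxr-/- mice, each 6 Cont and 6 ATB, serve for comparison. The deletion is present in every tissue, so a hepatic change cannot be assigned to PXR in the liver itself. Each group lived in 2 cages, and which mouse shared a cage with which is not given, so that shared cages could not enter any test. The study's methods name 6 mice per group, and 5 Cont males are analysed here.

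PXR (gene symbol Nr1i2) is a nuclear receptor of liver and gut that binds drugs, bile acids and other foreign or microbial compounds and switches on genes for their oxidation, conjugation and export. Its best known liver targets are P450 enzymes of the Cyp3a family, and it shares several targets of the Cyp2b family with a related receptor, CAR. Gut bacteria modify bile acids and release many small molecules that reach the liver through the portal vein. The question put to the null males was which part of the hepatic answer to antibiotics takes place without PXR.

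The arrays were of similar quality. The intensity at the 75th percentile of the gene probes lay between 306 and 386 on the 11 arrays, against a background of 15 to 21, and 31087 to 33127 of the 56605 gene probes were well above background. Log2 signals of any pair among the 11 arrays correlated at r = 0.987 to 0.996. The genotype could not be read from Nr1i2, since its probe gave a similar signal in both genotypes and so does not check the deletion, at 11.37 ± 0.25 (SD, n = 5) on the log2 scale in Pxr-/- Cont and 11.65 ± 0.28 (SD, n = 6) in Pxr+/+ Cont males. Cyp2c55, a PXR-responsive P450, did separate the genotypes: its log2 signal lay between 10.06 and 10.70 in the 11 null males and between 6.77 and 8.50 in the 12 Pxr+/+ males. The null males had the higher signal, so Cyp2c55 tells the groups apart but does not show the loss of an activated target. The cause of this direction was not tested. The 17 hepatocyte markers tested had a median log2 fold change of 0.00 between ATB and Cont, with 0 called by limma and 0 at an unadjusted p below 0.05. In whole liver, fewer cells of a type and less RNA per cell cannot be told apart.

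In null males, 24 of 21877 genes (0.11%) were changed, 11 of them higher (0.0503%) and 13 lower (0.0594%) with ATB. Effects of the drugs themselves and of the loss of bacteria cannot be told apart in this design. Several encode P450s and other enzymes: Cyp2b10, Cyp2b9, Cyp39a1 and Gstp1 fell, and Moxd1, Rhbg, Atp6v0d2, Gpx6 and Cyp2c70 rose. A gene is called changed, or is said to rise or fall, when at least 1 of its probes passed a false discovery rate of 0.05 and changed by more than 1.2-fold. The median log2 fold change over all genes was 0.02. At an unadjusted limma p below 0.05, 958 genes were higher (4.38%) and 612 lower (2.8%). With no effect at all, a share of about 0.05 of genes, both directions together, would reach this level. Counts of list members at this level, given below, are to be read beside these shares. The 5 Cont values lay wholly below the 6 ATB values in 150 genes (0.686%) and wholly above them in 67 (0.306%). The same treatment changed 290 genes (1.33%) in Pxr+/+ males. The counts depended on the scaling, with 18 genes higher and 37 lower after quantile normalization, 15 and 49 with the processed signal, 29 and 47 after normexp correction, and 19 and 41 in the authors' own processed values. They also fell with fewer arrays, to 3 higher and 3 lower in a fit of the 2 compared groups alone, and ran from 2 to 12 higher and from 3 to 16 lower when each of the 11 mice was left out in turn.

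**Figure D1:**
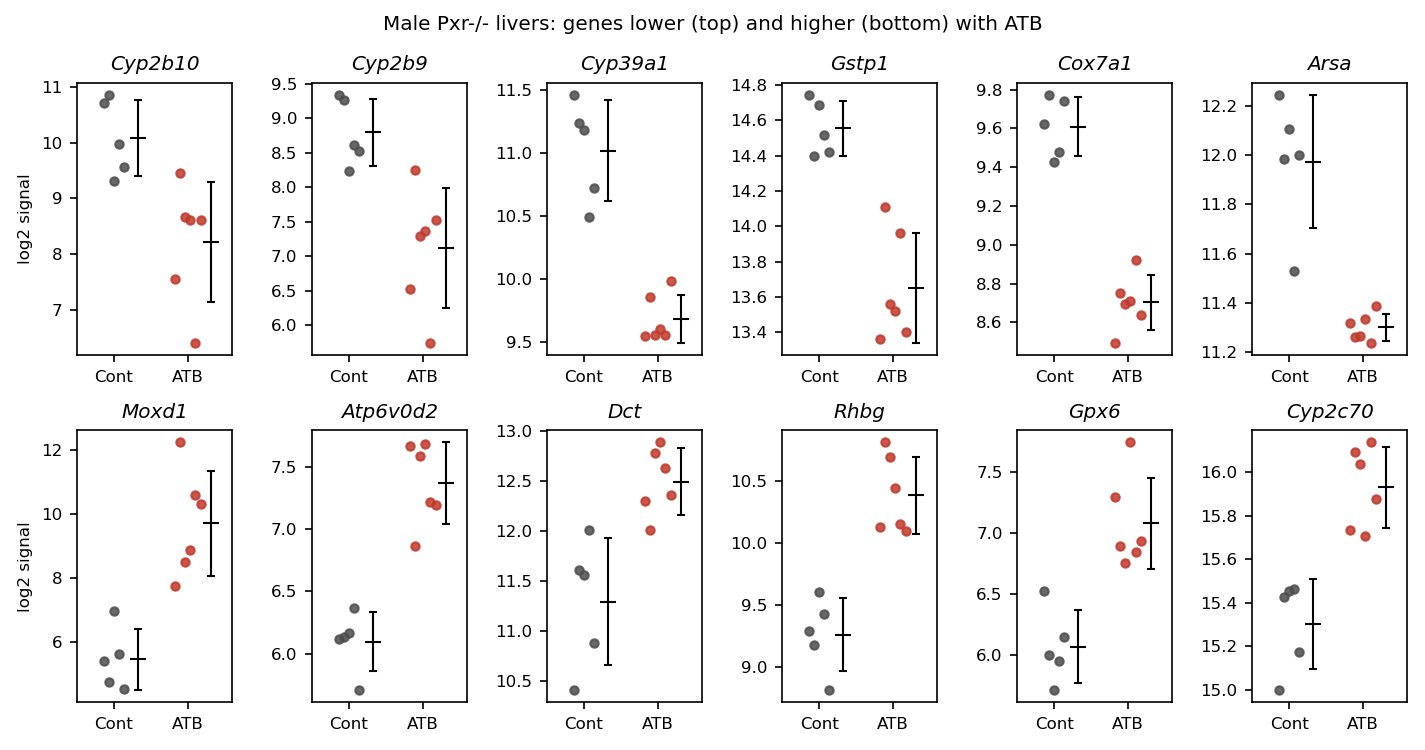
Log2 signal of 12 called genes in each male Pxr-/- mouse (points), with the mean and SD of each group (bars); the upper panels show genes lower with ATB, the lower panels genes higher. For 9 of the 12 genes, the 5 Cont and 6 ATB mice did not overlap; Cyp2b10, Cyp2b9 and Dct are the exceptions.

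Each value rests on a probe of 60 bases, and the first 30 bases are shown for the called P450s, for Moxd1 and Rhbg, the increases that remained called without any 1 mouse, and for Cyp3a11, on which the comparison of genotypes turns, written 5′ to 3′ as on the array, to show which transcript was read. Probe positions are in mouse build mm9. An annotation of that build was not used here, so exon and intron positions are not given. Cyp2b10 was read at chr7:26711522-26711581 (plus strand), Cyp2b9 at chr7:26995607-26995666 (plus), Cyp39a1 at chr17:43887735-43887794 (plus), Moxd1 at chr10:24022208-24022266 (plus) and Rhbg at chr3:88047265-88047324 (minus). Cyp2c70 was read at chr19:40227969-40228028 (minus) and Cyp3a11 at chr5:146672058-146673925 (minus), a span longer than the probe.
Cyp2b10: cacttatcagctctccatgatctgggatct
Cyp2b9: taaggtctgatttctatgtctacagacttg
Cyp39a1: ggggaacggaaactggggtgggaatgtatt
Moxd1: cactcagtgctaccctctgggtcgatctga
Rhbg: gggagtcagacacccgggcctaattgctgc
Cyp2c70: cttcttctgtgagcaaaaaggtcctcctgt
Cyp3a11: aaggcacctcccacgtatgatactgtgatg

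The largest decreases were in 2 neighbouring P450 genes of chromosome 7. Cyp2b10, a drug-oxidizing enzyme and the usual readout of CAR, had log2 signals of 10.71, 10.86, 9.31, 9.97 and 9.57 in Cont replicates 2 to 6, and a lowest, median and highest value of 6.41, 8.61 and 9.46 in ATB mice. The highest ATB mouse lay above the lowest Cont mouse, so the groups overlapped. Cyp2b10 fell by 1.87 on the log2 scale (SE 0.35, adjusted p = 0.0135), a 3.64-fold lower signal. A second probe of the gene, well above background in 3 of 6 ATB mice, gave a log2 fold change of -1.06 and an adjusted p of 0.0749.

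Cyp2b9 is a related P450 that female mice express far more than males. Its log2 signals in Cont mice were 9.34, 9.27, 8.23, 8.62 and 8.52, against 5.75, 7.33 and 8.25 for the lowest, median and highest ATB mouse. Here too 1 ATB mouse lay just above the lowest Cont mouse. Cyp2b9 fell by 1.68 (SE 0.32, adjusted p = 0.0173), a 3.20-fold lower signal. The mice kept much the same order for both genes, with ATB replicate 5 lowest and ATB replicate 2 highest among treated mice. Both calls were lost without Cont replicate 2 (log2 fold changes of -1.70 for Cyp2b10 and -1.53 for Cyp2b9), Cont replicate 3 (-1.66 and -1.55) or ATB replicate 1 (-1.73 and -1.56), and that of Cyp2b9 also without ATB replicate 5 (-1.36). Of the 52 P450 genes of families 1 to 3 that were tested, these 2 were called lower and 0 higher. At an unadjusted p below 0.05, 6 were lower and 3 higher, beside 2.8% and 4.38% of all genes. The median log2 fold change of the 52 was -0.02. Cyp1a1, the classical target of the aryl hydrocarbon receptor, had a log2 fold change of -0.64 and did not pass (adjusted p = 0.225).

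Bile acid synthesis turns cholesterol into bile acids by hydroxylations of the sterol ring and the side chain, and intestinal bacteria then remove the conjugated amino acid and a hydroxyl group. Of 19 genes of this pathway, Cyp39a1 was lower and Cyp2c70 higher, and no other member reached an unadjusted p below 0.05 by its brightest probe. Their median log2 fold change was 0.09. Cyp39a1, which adds the 7α-hydroxyl group to 24-hydroxycholesterol, had log2 signals of 11.46, 11.24, 11.18, 10.49 and 10.72 in Cont and 9.55, 9.58 and 9.99 (lowest, median, highest) in ATB mice. The treated mice lay in a narrow band below every Cont mouse. Cyp39a1 fell by 1.33 (SE 0.18, adjusted p = 5.18e-05), a 2.51-fold lower signal, and remained called when any 1 of the 11 mice was left out.

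Cyp2c70, which converts chenodeoxycholic acid to the muricholic acids of rodents, moved the other way. Its log2 signal ran from about 15 in the lowest Cont mouse through 15.17, 15.42 and 15.45 to 15.46, against 15.71, 15.96 and 16.14 (lowest, median, highest) in ATB mice, without overlap. Cyp2c70 rose by 0.63 (SE 0.12, adjusted p = 0.0186), or 1.55-fold, and was called in 6 of the 11 fits that left out 1 mouse. Cyp7b1, of the same oxysterol branch as Cyp39a1, had a log2 fold change of 0.35 with an adjusted p of 0.769. A second Cyp7b1 probe gave 0.47, with an unadjusted limma p of 0.0102 and an adjusted p of 0.612. Among 17 bile acid and organic anion transporters, 0 were called by limma and 2 were higher at an unadjusted p below 0.05. These were the uptake transporters Slco1a4 (log2 fold change 0.90, adjusted p = 0.111) and Slco1b2 (0.24, adjusted p = 0.666). A second probe of Slco1b2 gave a log2 fold change of -0.02 (adjusted p = 0.994). Of 19 nuclear receptors and FXR pathway genes, 0 were called and 1, Rora, was lower at that level, with a log2 fold change of -0.38 (adjusted p = 0.167) and no overlap between groups.

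The remaining called genes with lower signal came from several pathways. Gstp1, the pi-class glutathione transferase, had log2 signals of 14.74, 14.40, 14.69, 14.52 and 14.42 in Cont and 13.36, 13.54 and 14.11 in ATB mice. The groups did not overlap, and Gstp1 fell by 0.90 (SE 0.16, adjusted p = 0.00686), a 1.87-fold lower signal. The call was lost without Cont replicate 2, when the log2 fold change was -0.85. Cox7a1, a subunit of mitochondrial cytochrome c oxidase better known from muscle, gave 9.62, 9.77, 9.43, 9.48 and 9.74 in Cont and 8.50, 8.70 and 8.92 in ATB mice. It fell by 0.91 (SE 0.16, adjusted p = 0.00686) and was the 1 called gene among 44 nuclear-encoded subunits of oxidative phosphorylation, whose median log2 fold change was -0.03. Arsa encodes arylsulfatase A, the lysosomal enzyme that removes sulphate from sulfatides. Its log2 signal was 12.24, 11.98, 12.11, 11.53 and 12.00 in Cont and lay between 11.24 and 11.39 in ATB mice, with a median of 11.29. Arsa fell by 0.67 (SE 0.11, adjusted p = 0.000973), and treated mice spread less (SD 0.06) than Cont mice (SD 0.27). Both Cox7a1 and Arsa remained called when any 1 mouse was left out.

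A further 7 genes were lower. Impa2, an inositol monophosphatase also counted in glucose metabolism, fell by 0.78 (adjusted p = 0.0426), and the transcription factor Sall2 fell by 0.69 (adjusted p = 0.02). Pcgf2, a Polycomb group protein, fell by 0.62 (adjusted p = 0.0177), and its second probe gave a log2 fold change of -0.42. The rest are less well described. Gm13021 fell by 0.88, 4930432K21Rik by 0.72, the Slc25a3 transcript ENSMUST00000163246 by 0.56 and the probe of a long noncoding RNA on chromosome 1 by 0.73. For that noncoding RNA, a second probe gave a log2 fold change of -0.10 with an adjusted p of 0.872. Except for 4930432K21Rik, the Cont and ATB mice did not overlap for any of these, yet these calls rested on few mice. Of the 11 fits that left out 1 mouse, Pcgf2 was called in 7, Sall2 in 5, Impa2 in 3, and Gm13021, 4930432K21Rik, the Slc25a3 transcript and the noncoding RNA in 2 each.

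Moxd1 had the largest change in null males. It encodes a copper-dependent monooxygenase related to dopamine β-hydroxylase. In Cont mice its log2 signals were 5.41, 4.75, 6.97, 5.64 and 4.55, with 3 of 5 arrays well above background, and in ATB mice the lowest, median and highest values were 7.77, 9.59 and 12.24, with all 6 above background. No treated mouse came down to the Cont range, although treated mice differed among themselves by more than 4 log2 units. Moxd1 rose by 4.25 (SE 0.49, adjusted p = 1.56e-06), or 19.0-fold, and remained called when any 1 mouse was left out. Of the Cont values, 2 are not well above background, so 4.25 and 19.0-fold are values of the fit and not a measured size. The log2 fold change ran from 3.46 to 5.94 under the other settings, and the cause of that range was not tested.

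Rhbg, an ammonia transporter of the Rh family found in hepatocytes around the central vein, was the other increase that remained called when any 1 mouse was left out. Its log2 signal was 9.29, 9.18, 9.60, 9.42 and 8.81 in Cont and 10.09, 10.29 and 10.81 in ATB mice, without overlap. Rhbg rose by 1.12 (SE 0.16, adjusted p = 0.000171), or 2.18-fold. Among 38 genes of the urea cycle, ammonia handling and amino acid breakdown, Rhbg was the 1 called gene, and the list had a median log2 fold change of 0.01 and 4 genes higher and 1 lower at an unadjusted p below 0.05. Of these, Oat, the ornithine aminotransferase of the same pericentral zone, had a log2 fold change of 0.68 (adjusted p = 0.294), and the mitochondrial aminotransferase Agxt2 one of 0.42 (adjusted p = 0.224).

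Several of the other increases were in genes with low signal. Atp6v0d2, a subunit of the proton pump of lysosomes, had log2 signals of 6.12, 6.13, 6.16, 6.36 and 5.71 in Cont and 6.87, 7.40 and 7.68 in ATB mice. It rose by 1.27 (SE 0.25, adjusted p = 0.02), or 2.41-fold, while a second probe, above background in 0 of 5 Cont mice, gave a log2 fold change of 0.61. Together with Arsa it made 1 gene higher and 1 lower among 38 lysosomal genes, whose median log2 fold change was 0.02. Gpx6, a glutathione peroxidase known from the olfactory epithelium, had values of 6.53, 6.00, 5.71, 5.95 and 6.15 in Cont and 6.75, 6.91 and 7.74 in ATB mice and rose by 1.01 (SE 0.20, adjusted p = 0.0212). Dct, the dopachrome tautomerase of melanin synthesis, rose by 1.2 (SE 0.25, adjusted p = 0.0316). Its groups touched, with a highest Cont value of 12.01 and a lowest ATB value of 12.01, and its second probe gave a log2 fold change of 0.34 (adjusted p = 0.816). Atp6v0d2, Gpx6 and Dct were each called in 5 of the 11 fits that left out 1 mouse. The other increases were the H2aa1 transcript ENSMUST00000078756 (log2 fold change 0.78), the orexin receptor gene Hcrtr2 (0.61), an unannotated probe, NAP101548-1 (0.49), the predicted transcript ENSMUST00000089098 (0.35), and Rplp1 pseudogene 1, ENSMUST00000119410 (0.35). Of the 11 fits that left out 1 mouse, the H2aa1 transcript was called in 9, NAP101548-1 in 7, Hcrtr2 in 5, the Rplp1 pseudogene in 2 and ENSMUST00000089098 in 0. Histone and ribosomal protein genes have near-identical copies, so the source of the signal of those probes is uncertain.

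All 24 called genes moved in the same direction within each of the 3 wash batches. They were called on these same arrays, so the agreement follows largely from the choice and is a description only. For Cyp2b10 the difference between ATB and Cont means on the log2 scale was -2.22, -1.03 and -3.16 in batches 1, 2 and 3, and for Moxd1 it was 4.42, 3.29 and 6.04. Batch 3 held 1 mouse of each group. With fewer mice, limma called 0 genes in null males from the arrays of batch 1 alone and 0 from those of batches 2 and 3 alone, with 2084 and 1290 of 32979 probes at an unadjusted p below 0.05.

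Pxr+/+ males shared much of this response. Of the 24 called genes, 16 were also called in the same direction in Pxr+/+ males and all 24 had the same sign there. Neither comparison contrasts an array of the other, but both came from 1 normalization and 1 fit of all 47 arrays. Cyp2b10 fell in both genotypes, with log2 fold changes of -3.11 in Pxr+/+ and -1.87 in Pxr-/- males, and so did Cyp2b9 (-2.46 and -1.68) and Cox7a1 (-0.92 and -0.91). Gpx6 (1.08 and 1.01) and Cyp2c70 (0.79 and 0.63) rose in both. The difference between the genotypes was tested by a contrast of both effects. It was called for 4 of 21877 genes (0.0183%) and for 0 of these 24. At an unadjusted limma p below 0.05 were 1097 genes, close to the share of 0.05 that would reach it with no effect. Of these 24, 7 reached that level, but they were chosen by their change in null males, which enters this contrast.

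Moxd1, Cyp2b10 and Cyp39a1 were furthest apart between the genotypes among the called genes. For Cyp39a1 the log2 fold change was -0.29 in Pxr+/+ males (adjusted p = 0.37), and the effect in null less that in Pxr+/+ males was -1.04 (95% interval -1.54 to -0.54, adjusted p = 0.82). For Cyp2b10, which fell more in Pxr+/+ males, this difference was 1.24 (adjusted p = 0.842). Moxd1 was well above background in 0 of 6 Cont and 5 of 6 ATB mice of the Pxr+/+ group, so its Cont level there is not measured. With each Cont value raised to at least the lowest signal well above background on its array, the mean ATB signal was 2.63-fold higher. This value was not tested, and an ATB value not well above background was kept as read, so it is no strict bound. The limma comparison, on values that were not raised, had an adjusted p of 0.078. No size is given for the difference of Moxd1 between genotypes, which had an adjusted p of 0.842. None of the 3 differences passed after adjustment over all probes.

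**Figure D2:**
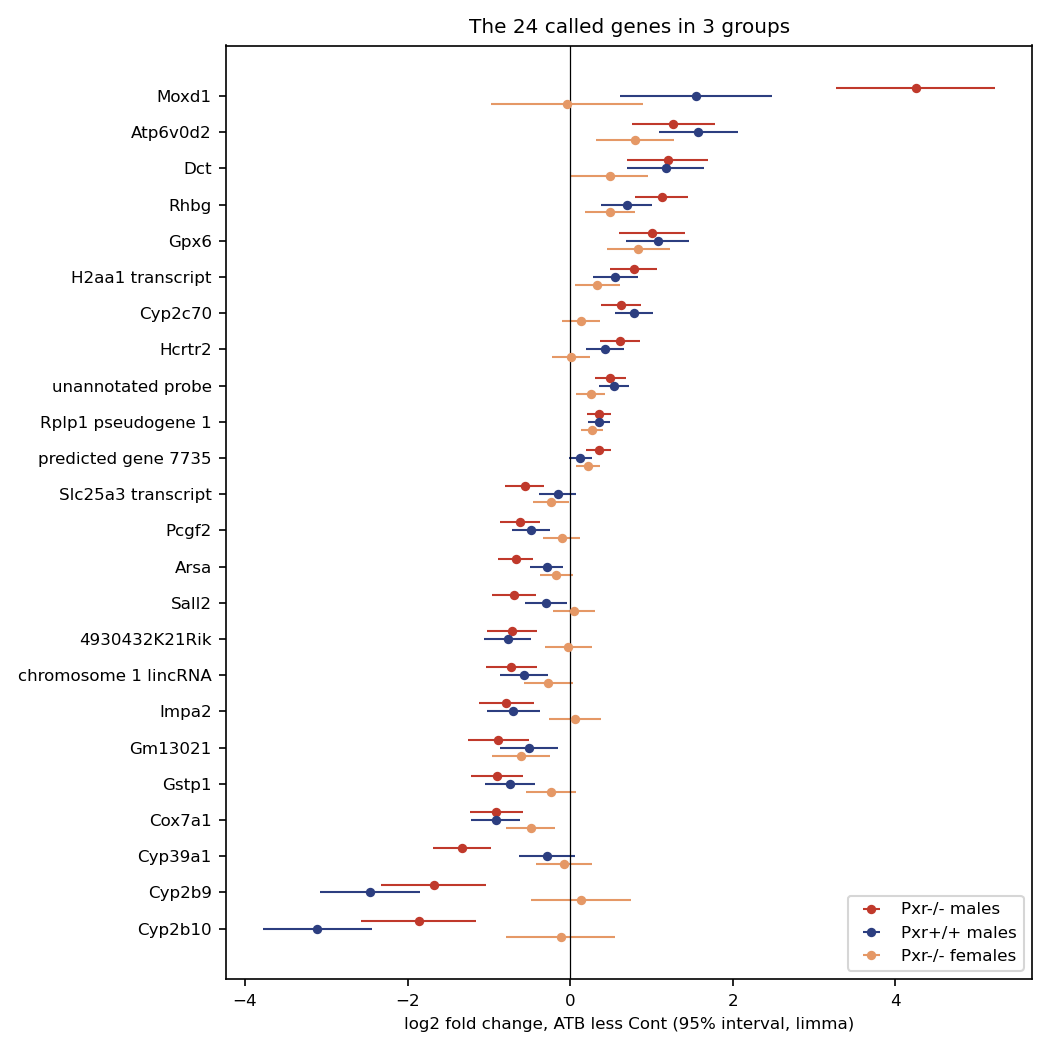
Log2 fold change (ATB less Cont) with its 95% interval from limma for the 24 genes called in male Pxr-/- mice, in these mice, in male Pxr+/+ mice and in female Pxr-/- mice. The intervals of the male groups overlap for most genes, and Moxd1, Cyp2b10 and Cyp39a1 are furthest apart; the genes were chosen in male Pxr-/- mice, and Moxd1 and Hcrtr2 were not well above background in any female.

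The 4 genes whose response differed between genotypes were all members of the Cyp3a cluster on chromosome 5, which encodes the main drug-oxidizing P450s of the liver. Cyp3a11, the most studied of them, had log2 signals of 14.88, 14.43, 14.97, 14.72 and 14.52 in null Cont and 13.85, 14.57 and 15.09 (lowest, median, highest) in null ATB mice. These groups overlapped widely, with a log2 fold change of -0.20 (95% interval -0.57 to 0.17, adjusted p = 0.889). In Pxr+/+ males the range was 13.89 to 14.42 in Cont and 11.88 to 12.55 in ATB mice, and Cyp3a11 fell by 2.04 (adjusted p = 1.12e-10). The effects differed by 1.84 (1.33 to 2.35, adjusted p = 8.64e-05). For Cyp3a16 the log2 fold change was -0.17 in null and -1.90 in Pxr+/+ males and the difference was 1.73 (adjusted p = 0.00013). For Cyp3a41a these values were -0.18, -1.73 and 1.55 (adjusted p = 1.47e-05), and for Cyp3a59 0.02, -1.18 and 1.2 (adjusted p = 0.00642). The value of Cyp3a59 in null males turned slightly negative under 3 other scalings. The differences were called without each of the 11 null mice in turn. Cyp3a genes are nearly identical in sequence, and how far each probe reads its own gene alone was not tested.

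The treated null mice did not respond alike in this cluster. ATB replicate 6 had the lowest signals of Cyp3a11, Cyp3a16 and Cyp3a41a, at 13.85, 13.37 and 16.46, and ATB replicate 1 the next lowest. Replicate 2 was highest in the group for Cyp3a11, Cyp3a16 and Cyp3a59. The SD of Cyp3a11 was 0.47 in ATB and 0.23 in Cont null mice. Null Cont males started from a higher level than Pxr+/+ Cont males, with means of 14.71 and 14.15 for Cyp3a11 and of 17.21 and 16.81 for Cyp3a41a. Cyp2c55 showed the same picture without passing, with a log2 fold change of -0.07 in null males (10.49 ± 0.06 in Cont, n = 5, and 10.42 ± 0.25 in ATB, n = 6, SD) and of -1.08 in Pxr+/+ males (adjusted p = 0.0216), and a difference of 1.01 (0.28 to 1.74, adjusted p = 0.842).

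**Figure D3:**
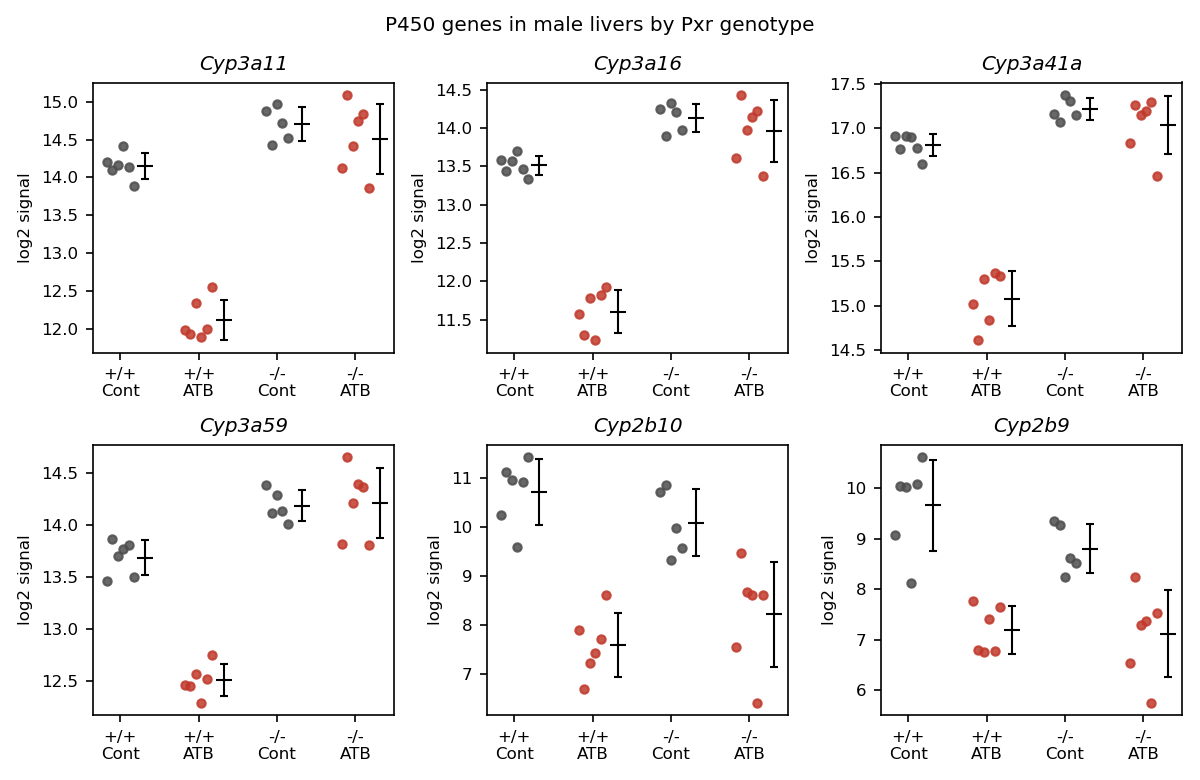
Log2 signal of 6 P450 genes in each male mouse (points) by Pxr genotype and treatment, with the mean and SD of each group (bars). The 4 Cyp3a genes separate Cont from ATB in Pxr+/+ males only, whereas Cyp2b10 and Cyp2b9 are lower with ATB in both genotypes.

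The 250 bases upstream of the start of these 4 genes, and of Cyp2b10 and Cyp2b9 for contrast, are shown because the genes moved together in one genotype or in both. The sequences are from RefSeq (build GRCm38.p6) and are written in the direction of transcription. Capitals mark AGTTCA and AGGTCA on either strand, 6-base half-sites that nuclear receptors bind in pairs. The windows are chr5:145879855-145880104 (minus strand) for Cyp3a11, chr5:145469724-145469973 (minus) for Cyp3a16, chr5:145720137-145720386 (minus) for Cyp3a41a and chr5:146079008-146079257 (plus) for Cyp3a59. Those of Cyp2b10 and Cyp2b9 are chr7:25897408-25897657 (plus) and chr7:26173159-26173408 (plus).
Cyp3a11: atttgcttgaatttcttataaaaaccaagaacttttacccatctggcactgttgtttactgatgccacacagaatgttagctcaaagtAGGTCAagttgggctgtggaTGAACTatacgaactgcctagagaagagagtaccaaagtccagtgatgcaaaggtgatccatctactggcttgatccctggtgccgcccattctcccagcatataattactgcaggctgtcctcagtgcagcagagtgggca
Cyp3a16: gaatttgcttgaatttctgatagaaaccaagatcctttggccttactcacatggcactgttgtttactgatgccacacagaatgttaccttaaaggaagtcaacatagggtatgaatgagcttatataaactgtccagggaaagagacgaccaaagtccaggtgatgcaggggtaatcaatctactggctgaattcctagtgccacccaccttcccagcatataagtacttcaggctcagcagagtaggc
Cyp3a41a: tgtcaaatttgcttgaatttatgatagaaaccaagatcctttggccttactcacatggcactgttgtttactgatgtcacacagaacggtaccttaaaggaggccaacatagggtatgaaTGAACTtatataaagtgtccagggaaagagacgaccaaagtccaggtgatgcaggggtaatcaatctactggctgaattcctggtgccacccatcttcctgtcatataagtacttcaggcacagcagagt
Cyp3a59: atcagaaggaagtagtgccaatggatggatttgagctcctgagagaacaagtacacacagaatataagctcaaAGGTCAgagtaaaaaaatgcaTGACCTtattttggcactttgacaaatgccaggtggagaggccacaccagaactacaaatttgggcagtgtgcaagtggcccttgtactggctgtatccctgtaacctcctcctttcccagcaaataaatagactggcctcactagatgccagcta
Cyp2b10: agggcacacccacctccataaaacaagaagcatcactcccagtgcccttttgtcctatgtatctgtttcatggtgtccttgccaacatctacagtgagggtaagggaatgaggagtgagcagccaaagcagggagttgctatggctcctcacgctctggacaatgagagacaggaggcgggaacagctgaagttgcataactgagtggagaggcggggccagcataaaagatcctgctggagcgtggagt
Cyp2b9: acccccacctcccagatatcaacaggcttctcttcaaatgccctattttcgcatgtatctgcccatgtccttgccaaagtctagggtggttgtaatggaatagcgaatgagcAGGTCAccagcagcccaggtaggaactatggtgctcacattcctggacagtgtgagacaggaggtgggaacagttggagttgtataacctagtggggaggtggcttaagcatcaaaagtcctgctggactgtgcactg
Cyp3a11 held 1 of each half-site, Cyp3a59 held 2 of AGGTCA, Cyp3a41a held 1 of AGTTCA, Cyp2b9 held 1 of AGGTCA, and Cyp3a16 and Cyp2b10 held none. Of 32851 mouse promoters of the same length, 11.8% held AGTTCA, 14% held AGGTCA and 24.2% held either, so single matches are common. A match describes the letters in this window only.

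Seen from the other genotype, the 290 genes called in Pxr+/+ males split into 248 higher and 42 lower, and 16 of them were called in null males in the same direction. Of the 248, 8 were called in null males, 217 (87.5%) had the same sign and 95 had the same direction at an unadjusted p below 0.05. Their median log2 fold change was 0.48 in Pxr+/+ and 0.18 in null males, beside medians over all genes of 0.10 and 0.02. Of the 42 lower genes, 8 were called in null males, 40 (95.2%) had the same sign and 28 reached the unadjusted level, with medians of -0.74 and -0.42. The difference between genotypes was called for 0 of the 248 and for 4 of the 42, the Cyp3a genes, and reached an unadjusted p below 0.05 for 114 and 13. These genes were chosen by their change in Pxr+/+ males, so the sizes in the 2 genotypes are set side by side as a description only. After quantile normalization, which moved the median over all genes in Pxr+/+ males from 0.10 to -0.0016, the split was 107 higher and 203 lower, of which 9 and 23 were called in null males and 84.1% and 94.1% had the same sign.

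**Figure D4:**
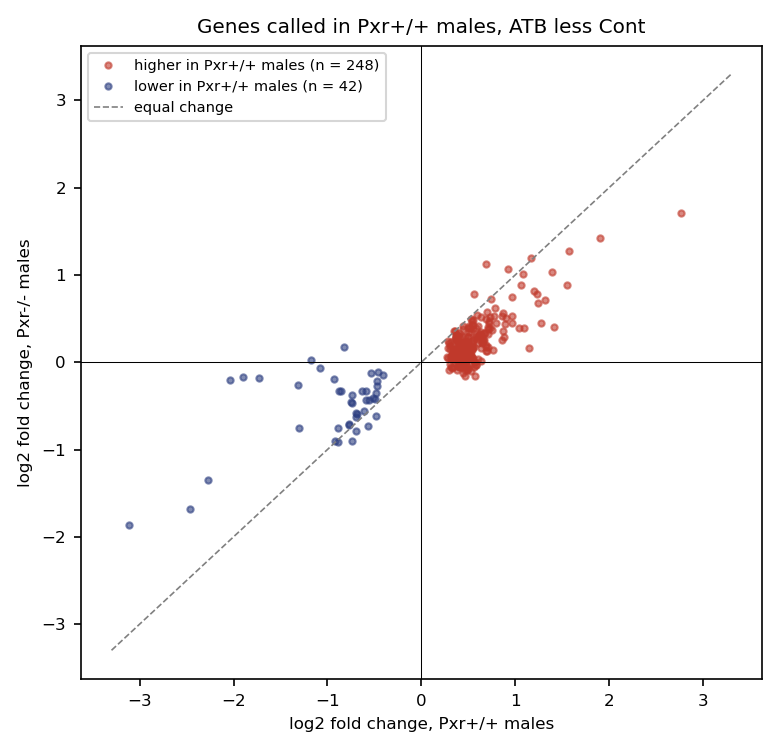
Log2 fold change (ATB less Cont) of the 290 genes called in male Pxr+/+ mice, in these mice (x axis) and in male Pxr-/- mice (y axis); each point is a gene and the dashed line marks equal change. Most points lie between the dashed line and 0, and the 4 Cyp3a genes lie close to 0 on the y axis at -1.18 to -2.04 on the x axis.

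Among the genes that moved most in Pxr+/+ males, several had a sizeable value in null males that did not pass. Tff3, a secreted trefoil peptide, had a log2 fold change of 2.76 in Pxr+/+ and 1.71 in null males (adjusted p = 0.0781), and the oestrogen sulphotransferase gene Sult1e1 one of 1.90 and 1.42 (adjusted p = 0.432). Wfdc2, a secreted protease inhibitor of epithelia, had values of -1.30 and -0.76 (adjusted p = 0.277), without overlap between the null groups. Cyp4a14, an ω-hydroxylase of fatty acids and a PPARα target, had values of -2.27 and -1.35 (adjusted p = 0.654), with 2 of 6 treated null mice well above background.

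In Pxr-/- females ATB changed 9 genes (0.0411%). That count moved with the setting more than in null males, being 19 with the processed signal, 24 with probes above background on all 47 arrays, 26 after quantile normalization, 38 with the slide in place of the wash batch, 51 after normexp correction and 124 in the authors' values, where null males had 60. Of the 24 genes called in null males, limma called 0 in null females, while 20 had the same sign and 11 had the same direction at an unadjusted p below 0.05. The difference between the sexes was called for 1 of 21877 genes (0.00457%), Moxd1. At an unadjusted limma p below 0.05 were 1064 genes, again close to the share of 0.05 that would reach it with no effect. Of the 24 genes called in null males, 16 reached that level, but their choice rests on the null males, which enter this contrast. Moxd1 was not well above background in any of the 12 null females, at 4.48 ± 0.30 in Cont and 4.44 ± 0.18 in ATB mice (log2 signal, SD, n = 6 each). Its effect in null males less that in null females was 4.29 in the fit (adjusted p = 0.00347), a value set against female signals at background and so not a measured size. Cyp39a1 had a log2 fold change of -0.08 in null females and a difference of -1.25 (-1.75 to -0.76, adjusted p = 0.13). Cyp2b10 and Cyp2b9 were far higher in null females than in males, with Cont means of 15.35 and 15.59 against 10.08 and 8.80, and had log2 fold changes of -0.12 and 0.14 there. The difference between the sexes for Cyp2b10 was -1.75 (-2.72 to -0.78) and did not pass (adjusted p = 0.898). The call for Moxd1 was lost with the processed signal, in the fit of the compared groups alone and where probes had to be above background on all 47 arrays, which leaves Moxd1 out.

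Of the sterol and fatty acid synthesis genes, none was called in null males. Of 24 genes of sterol biosynthesis, the pathway from acetyl-CoA to cholesterol, 0 were called by limma and 21 had a positive value. At an unadjusted p below 0.05, 8 were higher and 0 lower, beside 4.38% and 2.8% of all genes. Their median log2 fold change was 0.27 in null males and 0.66 in Pxr+/+ males, in which 12 of the 24 were called higher. The medians over all genes were 0.02 and 0.10. Mvk (mevalonate kinase) and Idi1 (isopentenyl diphosphate isomerase) both had values of 0.71 in null males (adjusted p = 0.437 and 0.624). Tm7sf2, a reductase late in the pathway, had a value of 0.40 (adjusted p = 0.338). The mean log2 signal of the list ran from 12.41 to 12.92 in Cont and from 12.55 to 13.36 in ATB mice, with ATB replicates 5 and 1 highest. Without ATB replicate 5, 5 genes reached the unadjusted level, and in wash batch 1 alone 1 did.

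Of 29 genes of fatty acid and triglyceride synthesis, 0 were called. At an unadjusted p below 0.05, 8 of the 29 were lower and 0 higher, beside 2.8% and 4.38% of all genes. The median log2 fold change was -0.33 in null males, 0.03 in Pxr+/+ males and -0.12 in null females. Acly, which makes cytosolic acetyl-CoA from citrate, had log2 signals of 14.88, 15.67, 15.31, 14.55 and 15.27 in Cont and 14.18, 14.37 and 14.83 in ATB mice, a log2 fold change of -0.72 (adjusted p = 0.654). The groups overlapped. Elovl2, an elongase of polyunsaturated fatty acids, had a value of -0.45 (adjusted p = 0.405) and the glycolytic enzyme Pklr one of -0.63 (adjusted p = 0.647). Fasn (-0.53), Scd1 (-0.38), Elovl5 (-0.42) and Elovl3 (-0.29), further enzymes of the branch, and the fasting hormone Fgf21 (-0.82, adjusted p = 0.742) did not pass either. The count rested on few mice, falling to 2 without Cont replicate 3, to 4 without ATB replicate 2 or 6 and to 5 without ATB replicate 1, and it was 14 in wash batch 1 alone and 0 in batches 2 and 3 alone. Of 48 genes of fatty acid oxidation and PPARα targets, 0 were called, 6 were lower and 1 higher at the unadjusted level, and the median was -0.14. They included Acot2, a mitochondrial thioesterase, at -0.64 (adjusted p = 0.561).

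**Figure D5:**
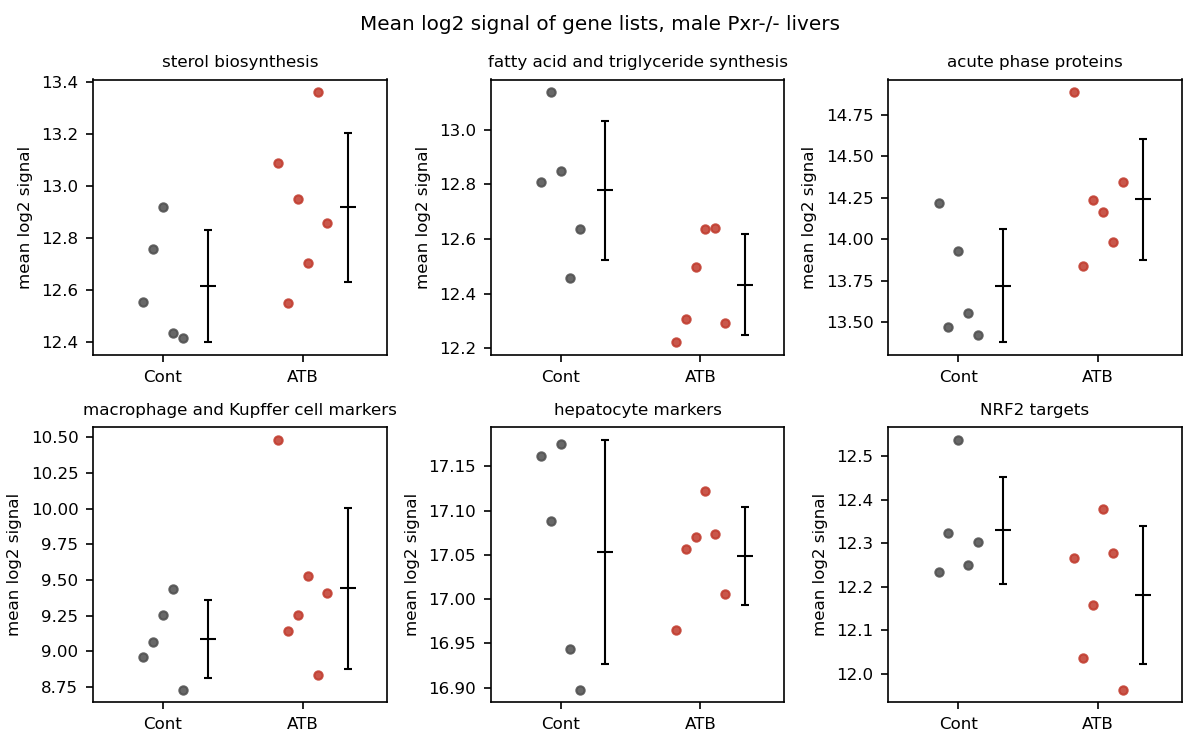
Mean log2 signal over the tested genes of 6 lists in each male Pxr-/- mouse (points), with the mean and SD of each group (bars). Cont and ATB mice overlap for every list, and ATB replicate 1 is far above the rest for macrophage and Kupffer cell markers, at 10.48.

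Glutathione and stress defence genes more often had a negative than a positive value, and a shift of these lists was not tested. Among 35 genes of glutathione transferases and glutathione supply, Gstp1 was called lower and Gpx6 higher, and 7 were lower and 2 higher at an unadjusted p below 0.05. The median log2 fold change was -0.09, beside -0.02 in Pxr+/+ males. Gstp2, the neighbour and near copy of Gstp1, had a value of -0.43 without overlap (adjusted p = 0.267), and Mgst3 one of -0.64 (adjusted p = 0.167). Of 24 targets of NRF2, the sensor of electrophiles, 0 were called and 5 were lower and 2 higher at the unadjusted level. Their median was -0.10, beside 0.00 in Pxr+/+ males. Ptgr1 (prostaglandin reductase) had a value of -0.69 (adjusted p = 0.0713), Ephx1 (microsomal epoxide hydrolase) one of -0.63 without overlap (adjusted p = 0.293), and the NADPH source Me1 one of -0.94 (adjusted p = 0.405). Of 58 genes of conjugation and other drug metabolism, 0 were called, with 3 higher and 6 lower at the unadjusted level and a median of 0.01. Over all genes, 4.38% were higher and 2.8% lower at that level.

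In taurine, sulphur amino acid and one-carbon metabolism, 0 of 28 genes were called and 1 was higher and 3 lower at an unadjusted p below 0.05. Csad, which commits cysteine to taurine for bile acid conjugation, had log2 signals of 13.02, 13.17, 14.57, 12.71 and 13.30 in Cont and 11.56, 11.94 and 12.26 in ATB mice. The groups did not overlap, and the log2 fold change of -1.44 (SE 0.35) missed the threshold (adjusted p = 0.134). It was -1.24 in Pxr+/+ males and -1.52 in null females, and a second probe gave -0.39 in null males.

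Immune and acute phase genes varied with single mice. Of 31 macrophage and Kupffer cell markers, 0 were called. At an unadjusted p below 0.05, 12 of the 31 were higher and 0 lower, beside 4.38% and 2.8% of all genes. The median log2 fold change of the list was 0.41, with -0.12 in Pxr+/+ males and -0.11 in null females. The mean log2 signal of the list was 8.73 to 9.44 in Cont and 8.84 to 10.48 in ATB mice, and ATB replicate 1 alone lay above 9.53. The count was 2 without ATB replicate 1, 2 without Cont replicate 6, 4 without Cont replicate 2, 5 without Cont replicate 3 or ATB replicate 4, 7 without ATB replicate 6 and 20 without ATB replicate 5. Mpeg1, the pore-forming protein of macrophages, did not overlap between groups, with a value of 0.62 (adjusted p = 0.412). A second probe of Mpeg1 gave 0.31 (adjusted p = 0.791). Aif1, Tyrobp and Fcgr1 had values of 0.69, 0.65 and 0.54. Of 29 acute phase proteins, made by hepatocytes in inflammation, 0 were called and 7 were higher at the unadjusted level, with a median of 0.23. The metallothioneins Mt1 and Mt2, which bind zinc and copper, had log2 fold changes of 2.05 and 2.63 (adjusted p = 0.308 and 0.401), with log2 signals of Mt2 from 9.54 to 13.68 in Cont and from 12.60 to 15.79 in ATB mice. Orm3, an acid glycoprotein, had a value of 1.41 (0.73 by a second probe) and complement C3 one of 0.18 (0.20 by a second probe). This count was 4 without ATB replicate 1, Cont replicate 3 or Cont replicate 6, and 12 without ATB replicate 2. The chemokine Cxcl1 had a value of 1.43 (adjusted p = 0.647), with ATB replicate 1 highest at 13.46, and 4 of 30 genes of LPS and Toll-like receptor sensing were higher at the unadjusted level with 0 called.

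Markers of the other cell types gave few genes at the same level. At an unadjusted p below 0.05, 1 of 23 T and NK cell markers (Cd3e, log2 fold change 0.24, or 0.14 by a second probe), 1 of 8 neutrophil markers (Ly6g, 0.30) and 0 of 7 B cell, 21 sinusoidal endothelial, 13 cholangiocyte and 5 erythroid markers were higher or lower, and limma called none of them. Values were positive for 22 T and NK cell markers (median 0.18) and 8 neutrophil markers (median 0.20), beside 0.02 over all genes. The same held for 6 B cell, 15 sinusoidal endothelial, 2 cholangiocyte and 2 erythroid markers. Of 20 stellate cell and fibroblast markers, 0 were called, 1 was higher and 2 lower at that level, among them Itih5, an inhibitor that stabilizes the hyaluronan matrix, at -0.88 (adjusted p = 0.0971). None of 19 circadian clock genes and 9 genes of MHC class II presentation reached an unadjusted p below 0.05, and limma called 0 of both. The same held for all but 1 of 30 heat shock genes, 1 of 40 interferon-stimulated genes and 1 of 23 cell cycle genes. The clock list did not hold Rora, which was counted among the nuclear receptors above. Of 41 genes of growth hormone signalling and sex-biased liver expression, Moxd1 was called higher and Cyp2b9 lower, with 2 higher and 1 lower at the unadjusted level, and of 33 genes of glucose metabolism Impa2 was called lower, with 2 lower and 0 higher at that level. The part of these cell types in the results above was not tested.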

How the data were processed

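Liver RNA was labelled with Cy3 and hybridized to 1-color mouse 8x60K arrays, 1 array per mouse. Per the labels, the authors read the images with Agilent Feature Extraction 10.10.1.1, and the deposited files give each spot's median intensity on a linear scale, with nothing subtracted or scaled between arrays. The deposited table of log2 values, made by the authors by filtering, removal of the wash effect and CrossNorm, served as an alternative only.

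Here log2 of the median signal was taken, spots of a probe were averaged, and values marked non-uniform were replaced by the group mean (78 values on the 11 arrays). A probe was kept when some group had 5 or more arrays with a signal well above background (32979 probes, 21877 genes). Following the study's methods, the wash batch was removed and CrossNorm was applied, here as the mean of 300 random stackings of 1 array per group. A limma 3.58.1 model (R 4.3.3) held the 8 groups and the wash batch over all 47 arrays, and each comparison is a contrast with Benjamini-Hochberg adjustment over all probes. Each gene is represented by its called probe, otherwise by its brightest one. Figures were drawn with matplotlib 3.10.9. The number of arrays limits the precision. The fit was tested on simulated data.

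Named are every called gene, up to 4 genes with the lowest p of each of 33 lists, genes with a called difference between genotypes or sexes, those with the largest change in Pxr+/+ males, and the genes the study measured by qPCR. The members and lists were chosen with earlier results of these data known. Gene symbols are those of the array files, with 1535 probes renamed through their accession in the RefSeq table. Alternatives concerned the normalization, background correction, filter, wash batch, slide, groups in the fit, a replicate block, and leaving out each mouse. Replicate numbers did not pair the mice.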

Additional observations from a re-analysis of the deposited data

Results flagged for a closer look

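Among 144 sets of values (72 genes in Cont and ATB null males), 5 held a mouse whose gap to the next was above the 95% critical value of Dixon's test, which chance passes in about 1 of 20 sets. The H2aa1 transcript ENSMUST00000078756 had its lowest log2 signal in Cont replicate 6, at 12.56, with the next at 13.19. Oat was lowest in ATB replicate 5, at 15.44. Ly6g was highest in Cont replicate 2, at 7.39, with the next at 7.07. Cyp2c55 was highest in Cont replicate 4, at 10.59, with the next at 10.48. Fgf21 was highest in ATB replicate 5, at 7.94, with the next at 6.63.

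The effect of ATB differed by a tested contrast between null and Pxr+/+ males for Cyp3a11 (1.84 on the log2 scale), Cyp3a16 (1.73), Cyp3a41a (1.55) and Cyp3a59 (1.2), and between null males and null females for Moxd1 (4.29, set against female signals not well above background).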

How the results depend on the processing

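Of 76 values of single genes under the alternatives, given as 1895 recomputed values, 1632 kept their direction and side of the threshold, 225 no longer passed, 27 newly passed and 11 changed sign. The changes of sign concerned 3 genes that were not called in null males. Cyp3a59 went to -0.017 after quantile normalization, -0.0090 after normexp correction, -0.0018 in the authors' processed values, -0.034 from the arrays of wash batch 1 alone, and ran from -0.067 to 0.11 without each mouse in turn, below 0 without ATB replicate 2, 4 or 5 or Cont replicate 6. Cyp2c55 ran from -0.12 to 0.012 without each mouse, above 0 without ATB replicate 6, and went to 0.019 in wash batch 1 alone, and Elovl3, at -0.29 with all arrays and -0.40 to -0.14 without each mouse, went to 0.034 in wash batch 1 alone. The causes were not tested.

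The count of genes higher with ATB in null males (11) was 18 after quantile normalization, 29 after normexp correction, 19 in the authors' values and 3 in a fit of the 2 compared groups alone. That of genes lower (13) was 37, 47, 41 and 3 under these settings, 49 with the processed signal less the 75th percentile and 8 without a filter on dim probes. Leaving out each of the 11 mice in turn gave 2 to 12 genes higher and 3 to 16 lower. The higher count was 2 without Cont replicate 6, 3 without ATB replicate 3, 4 without Cont replicate 2, 5 without ATB replicate 1 and 6 without Cont replicate 3 or ATB replicate 4 or 5. The lower count was 3 without Cont replicate 2, 4 without ATB replicate 1, 6 without Cont replicate 6 or ATB replicate 3, 7 without Cont replicate 3 or 4 and 8 without ATB replicate 4. The 4 genes that differed between genotypes stayed 4 without each mouse. The count that differed between the sexes (1) was 1 to 2 without each mouse, 2 without Cont replicate 5, and 0 with the processed signal, with probes above background on all 47 arrays and in a fit of the compared groups alone. Of the genes called in Pxr+/+ males, 16 were called in null males, 32 after quantile normalization, 34 with the processed signal, 36 after normexp correction, 32 in the authors' values and 25 in a fit of the 4 male groups.

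Replicate numbers did not pair the mice, with correlations of the same number's deviations between -0.23 and 0.24 over 5 numbers and 1 of 5 highest with its own. With the replicate block, 9 genes were higher and 10 lower, 4 differed between genotypes, 1 differed between sexes and 11 of those called in Pxr+/+ males were called. Fits within wash batches were added after the data were seen. From batch 1 alone, 0 genes were higher, 0 lower, 2 differed between genotypes and 0 between sexes, and from batches 2 and 3 alone all 4 counts were 0. These fits use fewer mice.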
